A study of Mus musculus with 2 samples.

Results

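To see how genes of secreted stress factors behaved in breast cancer cells treated with astragalin (AS), the levels of 6 such genes, Gdf15, Stc2, Stc1, Vegfa, Fgf21 and Adm2, were examined in 4T1 cells. The genes were taken by name, as factors known to be released by stressed cells. They were chosen by a rule made with the RPKM of both libraries already in view, so their values are given as a description. Of the 6 genes, 3 (Stc2, Stc1 and Vegfa) could be analysed among 14197 genes with values in both libraries, whereas Gdf15, Fgf21 and Adm2 are not analysed here. The genes for which reads could be recovered had a mean of at least 31 reads over the libraries. At the exon lengths of Gdf15, Fgf21 and Adm2, that many reads would correspond to 0.350, 0.681 and 0.499 RPKM.

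4T1 is a murine mammary carcinoma line. The cells, labelled as wild-type tumor cells, received 20 μM AS, a plant flavonoid, for 24 h or the vehicle alone, and 1 RNA-seq library was sequenced per condition. The library sizes behind the values were 44909683 reads with AS and 50820728 reads with the vehicle. Levels are given as RPKM, read numbers corrected for exon length and library size, so they can be compared between genes. With 1 library per condition there was no replicate check and no p-value, and a difference between AS and the vehicle cannot be told apart from a difference between dishes. Of 7 epithelial markers of mammary carcinoma cells, all 7 were found, with Epcam at 335 RPKM with AS and 357 RPKM with the vehicle. The sum of the 7 markers was 1777 RPKM with AS and 2292 RPKM with the vehicle. Krt19 was the only 1 of the 7 lower by more than 1.5-fold, against 2.01% of all genes. The log2 fold changes were -0.73 for Krt19, -0.54 for Krt8, -0.52 for Krt7 and -0.35 for Krt18. Those of Epcam, Cldn7 and Cdh1 were -0.09, -0.06 and 0.17. The leukocyte markers that could be analysed, Ptprc and Itgam, summed to 0.435 RPKM with AS and 0.521 RPKM with the vehicle. The fibroblast markers that could be analysed, Pdgfra and Col1a1, summed to 5.13 RPKM with AS and 4.87 RPKM with the vehicle, most of it Pdgfra at 4.24 and 4.16 RPKM. None of the endothelial markers Pecam1, Cdh5 and Tek could be analysed. Some structural RNA genes differed strongly between the libraries. The 18S ribosomal RNA gene Rn18s-rs5 had 1015 RPKM with AS and 3005 RPKM with the vehicle, Rn7s1, a 7SL RNA gene, had 0.742 and 24.7 RPKM, and Rpph1, the RNA of RNase P, had 0.14 and 9.50 RPKM. These genes, named after their values were seen, were among the 15 lowest log2 fold changes of the table. The annotation held 57 structural RNA genes with values, without the 18S gene. Of these 57, 4 were lower and 1 was higher by more than 2-fold, against 0.31% and 0.662% of all genes. The median log2 fold change of the 57 was -0.23. They made up 0.0396% of the AS library and 0.0466% of the vehicle library. Protein-coding genes with a single annotation entry made up 91.9% of the AS library and 91.3% of the vehicle library, and scaling to their reads in place of the library size, chosen after the data were seen, lowered every log2 ratio of AS to vehicle by 0.009. The part of differing RNA composition in the values of the secreted factors was not tested further.

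Cells under stress release proteins that carry the signal to other cells. When the kinases of the integrated stress response phosphorylate the initiation factor eIF2α, the transcription factor ATF4 is translated and raises genes of amino acid supply together with genes of secreted factors. Low oxygen acts through the HIF factors on an overlapping set. Stc2 and Stc1 encode stanniocalcins, glycoprotein hormones first known from calcium regulation in fish. STC2 also binds and inhibits PAPP-A, a protease that frees insulin-like growth factors from their binding proteins. Vegfa encodes the main growth factor of blood vessels. GDF15 and FGF21 are circulating hormones of cellular and metabolic stress, and Adm2 encodes a peptide of the calcitonin family.

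The regions upstream of Stc2 and Vegfa are shown because these were the genes with higher levels in the AS library. They are the 250 bases before the start site given by RefSeq on GRCm38.p6. This start site differs slightly from the first base of the gene in GENCODE M21, so that the last 13 bases of the Stc2 window lie inside the GENCODE gene, while the Vegfa window ends 8 bases before it. The 50 bases after the RefSeq start of Vegfa were therefore not found whole in a GENCODE transcript, whereas the stretch from the GENCODE start on was found. The window of Stc2 lies on the minus strand at chr11:31370062-31370311 and that of Vegfa on the minus strand at chr17:46032378-46032627. Both are printed 5′ to 3′ on the strand of the gene.
Stc2: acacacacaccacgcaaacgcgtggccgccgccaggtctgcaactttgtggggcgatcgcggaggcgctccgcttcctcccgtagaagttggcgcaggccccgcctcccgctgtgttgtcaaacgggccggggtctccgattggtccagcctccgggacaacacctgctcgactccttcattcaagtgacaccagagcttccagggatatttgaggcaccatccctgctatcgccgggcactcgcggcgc
Vegfa: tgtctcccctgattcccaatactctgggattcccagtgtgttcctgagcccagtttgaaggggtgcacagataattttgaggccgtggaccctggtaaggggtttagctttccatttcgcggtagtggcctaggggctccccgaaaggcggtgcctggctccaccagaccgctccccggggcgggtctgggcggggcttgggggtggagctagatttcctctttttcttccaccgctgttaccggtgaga
Neither window held any of the 4 elements in the forms that were searched on both strands, and therefore no letter is in capitals. The elements were the core TGATGNAA of the C/EBP-ATF response element, TGACGTCA of the cyclic AMP response element, ACGTG of the hypoxia response element and the ER stress response element. Only the form ACGTG of the hypoxia core was searched. The form GCGTG, which the Stc2 window holds, was not counted, so a hypoxia core in that window is not excluded. Among all 32851 windows of the table, 3.45% held the first, 1.55% the cyclic AMP response element, 16.6% the hypoxia core and 0.113% the ER stress response element. The GC content was 64.4% upstream of Stc2 and 59.2% upstream of Vegfa, against a median of 52.4% over all windows. A further window of Vegfa, with its start site inside the gene, held 1 match of the hypoxia core and is not shown. Elements outside these bases were not searched.

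The 3 genes did not change in 1 direction. In the AS library Stc2 was higher by more than 2-fold, Vegfa was higher by about 1.5-fold and Stc1 was lower. A gene was called when its log2 fold change, computed after 0.1 RPKM was added to both values, was beyond 1, and 1 of the 3 genes was called higher and 0 were called lower. Of all genes, 0.662% were called higher and 0.31% lower. At a threshold of 1.5-fold, 2 of the 3 genes were higher and 0 were lower, while 3.56% of all genes were higher and 2.01% lower. Since the genes were chosen with these values in view, nothing is read from these counts.

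**Figure D1:**
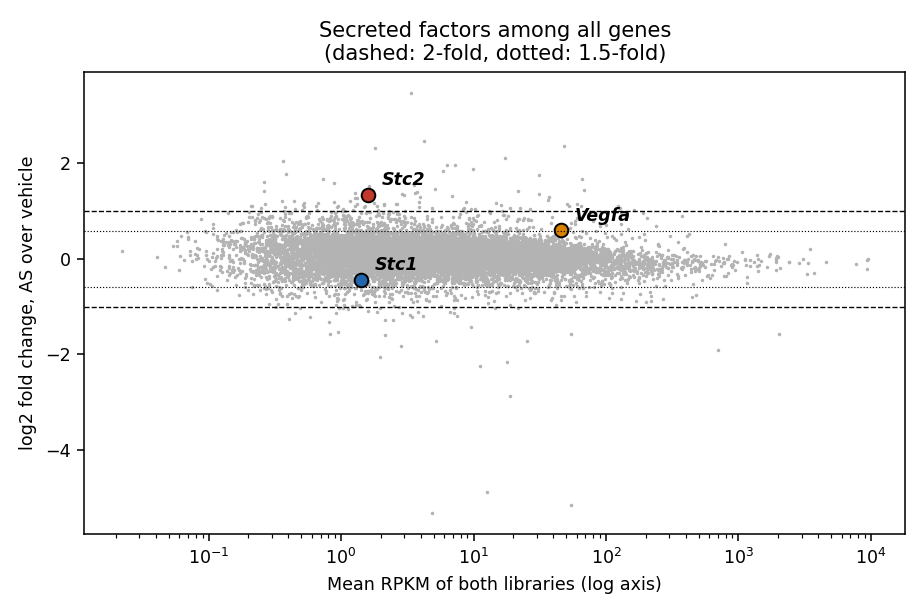
Log2 fold change of AS over vehicle against the mean RPKM of both libraries (log axis) for 14197 genes (grey points), with the 3 secreted factors in color. Dashed and dotted lines mark 2-fold and 1.5-fold changes. Stc2 lies above the upper dashed line, Vegfa on the upper dotted line and Stc1 below 0, inside the dotted lines.

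The gene of Stc2 spans 31357307 to 31370074 of chromosome 11, minus strand (GENCODE M21, GRCm38). The AS library held 540 reads of Stc2, or 2.32 RPKM, and the vehicle library held 225 reads, or 0.856 RPKM. The gene was thus low in both libraries, at percentile 29.6 of all genes with AS and percentile 12.4 with the vehicle. Its log2 fold change of 1.34 was number 31 among all genes from the highest. The reads alone, with nothing added, gave 1.44, and the 95% Clopper-Pearson bounds were 1.21 and 1.67. These bounds cover counting error only and no difference between dishes. Of 2275 other genes with a mean RPKM within 1.5-fold of that of Stc2, 4 had a larger log2 fold change. The nearest of these genes in log2 fold change over the 2 libraries were Mreg, at 1.31, and Trp53inp1, at 1.38.

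Stc1, the other stanniocalcin gene, spans 69029238 to 69041804 of chromosome 14, plus strand. For Stc1 there were 224 reads (1.19 RPKM) in the AS library and 351 reads (1.65 RPKM) in the vehicle library. The log2 fold change was -0.44, at percentile 4.26 of all genes, and did not pass a threshold of 1.5-fold. From the reads alone it was -0.47, with a counting interval from -0.72 to -0.22 that does not include 0. Among 2153 other genes at a like level, within 1.5-fold of its mean RPKM, 112 had a lower log2 fold change. Gm32618 and Asb6, both at -0.44, were nearest to Stc1 in this group.

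The order of the stanniocalcins was thus the opposite in the 2 libraries. With the vehicle, Stc1 was 1.92 times the level of Stc2 per kilobase of exon. With AS, Stc2 was 1.96 times the level of Stc1. The ratio of Stc2 to Stc1 was 3.76 times higher in the AS library, with a 95% exact conditional interval of the reads from 2.97 to 4.76. This ratio is taken within each library and does not depend on the scaling between them, and its interval again covers counting error only.

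**Figure D2:**
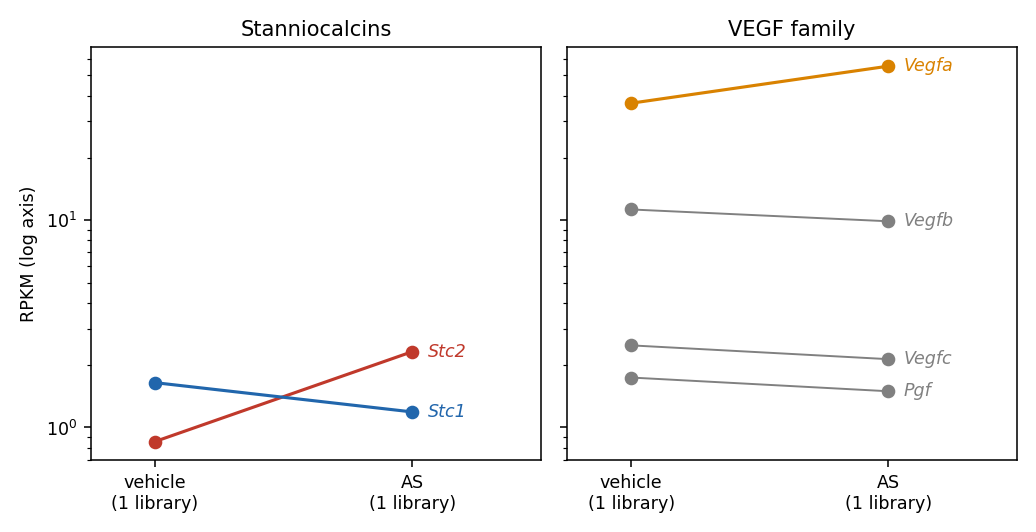
RPKM (log axis) in the vehicle library and in the AS library for the 2 stanniocalcin genes (left) and for Vegfa and its relatives (right). Each point is 1 library and each line joins the values of a gene. The lines of Stc2 and Stc1 cross, while Vegfa goes from 36.7 to 55.5 RPKM, above relatives whose values differ by less than 1.5-fold.

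Vegfa spans 46016993 to 46032369 of chromosome 17, minus strand. It was by far the most expressed of the 3 genes, at 55.5 RPKM in the AS library (10674 reads) and 36.7 RPKM in the vehicle library (8000 reads). These levels were at percentiles 93.3 and 89.6 of all genes. The log2 fold change was 0.59, a ratio of 1.51, with a counting interval from 0.55 to 0.64 for the reads alone. It passed the threshold of 1.5-fold narrowly, and no longer did so with TMM scaling of the reads (0.53), the other scalings or 1 RPKM added. Of 1045 other genes at a like level, 20 had a larger log2 fold change, and the nearest in log2 fold change were Esd (0.58) and Ankrd11 (0.57). The reads of all Vegfa isoforms are summed in this value, and the isoforms cannot be told apart.

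The relatives of Vegfa did not show its difference. Vegfb, whose product binds VEGF receptor 1, was at 9.89 RPKM in the AS library and 11.3 RPKM in the vehicle library. Vegfc, which encodes a growth factor of lymphatic vessels, had 2.14 and 2.49 RPKM. Pgf, the placental growth factor gene, had 1.5 and 1.74 RPKM. None of these 3 passed a threshold of 1.5-fold, and their log2 fold changes lay between -0.21 and -0.19. The counting interval from the reads was -0.33 to -0.05 for Vegfb, while those of Vegfc, from -0.47 to 0.03, and Pgf, from -0.50 to 0.05, included 0. Of the summed RPKM of the 4 genes, Vegfa made up 80.4% with AS and 70.3% with the vehicle. The sum without Vegfa was 13.5 RPKM with AS and 15.5 RPKM with the vehicle. The ratio of Vegfa to Vegfb was 1.72 times higher with AS, with an exact conditional interval of the reads from 1.55 to 1.91.

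**Figure D3:**
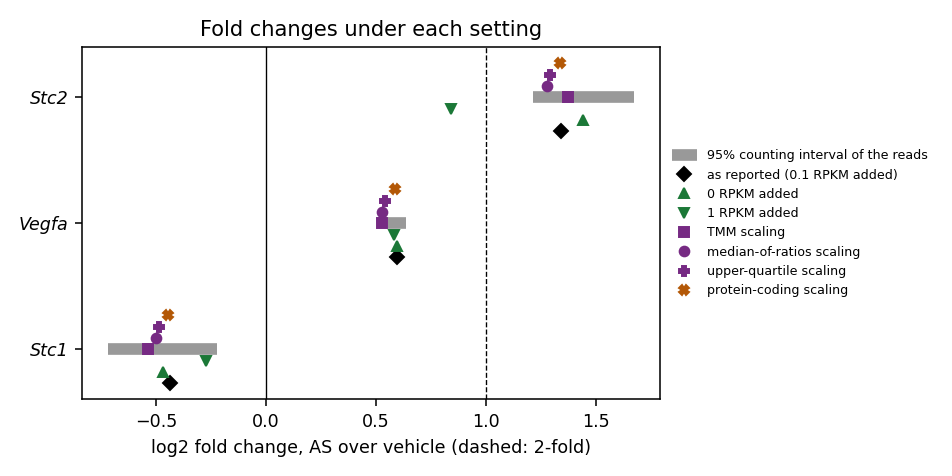
Log2 fold changes of Stc1, Vegfa and Stc2 (AS over vehicle) as reported and under 6 alternative settings, with the 95% counting interval of the reads as a grey bar. Stc2 and Vegfa stay above 0 and Stc1 below 0 at each setting. Stc2 is below the dashed 2-fold line, at 0.84, when 1 RPKM is added.

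The secreted factors act on receptors that tumor cells may carry themselves. Of 15 genes of receptors and co-receptors for the 6 factors, 6 could be analysed, and 0 of them passed a threshold of 1.5-fold in either direction. Of all genes, 3.56% were higher and 2.01% lower at this threshold. Gfral, Ret, Kdr, Klb, Calcrl, Ramp3, Fgfr1, Fgfr3 and Fgfr4 were not analysed, so the receptors are covered only in part. The values below are those of the 6 analysed genes. The median log2 fold change of these 6 was 0.11, against 0.07 for all genes. The receptor gene with the highest level was Nrp2, a co-receptor of VEGF and semaphorins, with 44.4 RPKM with AS and 33.3 RPKM with the vehicle (log2 fold change 0.41). Flt1, the gene of VEGF receptor 1, had 3.46 and 3.94 RPKM, a log2 fold change of -0.18. Nrp1 had 1.70 RPKM with AS and 1.41 RPKM with the vehicle. Fgfr2, a receptor gene of the FGF family, had 9.79 and 8.20 RPKM. Ramp1 and Ramp2, whose products steer the calcitonin receptor-like receptor that ADM2 uses, had log2 fold changes of -0.26 and -0.03. Of these receptor genes, Flt1, Nrp1, Fgfr2, Ramp1 and Ramp2 were chosen after their values were seen.

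Growth factors of these families are cut or modified before or after release. Of 12 genes of processing enzymes and extracellular partners, 7 could be analysed, with a median of -0.02. Of these 7, 0 passed 1.5-fold in either direction, against 3.56% of all genes higher and 2.01% lower. Pcsk5, Fap, Pappa, Pappa2 and Igfbp5 were not analysed, so Pappa, the gene of PAPP-A, has no value here. Igfbp4, an insulin-like growth factor binding protein that PAPP-A cleaves, was the gene with the highest level in this list. It had 155 RPKM with AS and 177 RPKM with the vehicle (log2 fold change -0.19). Furin, the main proprotein convertase of the secretory pathway and also chosen after its values were seen, had 4.47 and 4.54 RPKM, a difference of -0.02 on the log2 scale.

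Among the relatives of the 6 factors in their own ligand families, 14 of 29 genes could be analysed. Of these, 1 was higher by more than 1.5-fold, 0 were lower by as much, 0 passed 2-fold, and the median log2 fold change was -0.10. Of all genes, 3.56% were higher and 2.01% lower by more than 1.5-fold, and 0.662% and 0.31% by more than 2-fold. The higher gene of the list was Fgf7, which encodes a growth factor for epithelial cells. Fgf7 had 1.49 RPKM with AS and 0.751 RPKM with the vehicle (log2 fold change 0.91). Adm, the adrenomedullin gene and a relative of Adm2 chosen after its values were seen, had 2.30 RPKM with AS and 2.81 RPKM with the vehicle (log2 fold change -0.28). Inhba, the gene of an activin subunit of the same superfamily as GDF15 and likewise chosen after its values were seen, was at 26.9 RPKM with AS and 35.8 RPKM with the vehicle. Its log2 fold change of -0.41 was the lowest of the list.

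A wider list held 32 other secreted stress and growth factors without chemokines, of which 25 could be analysed. At 1.5-fold, 3 of the 25 were higher and 2 were lower, against 3.56% and 2.01% of all genes. With 0.1 RPKM added, 0 passed 2-fold in either direction, against 0.662% of all genes higher and 0.31% lower, and the median was -0.10. Lcn2, the gene of the iron-trafficking lipocalin, had 14.2 RPKM with AS and 8.72 RPKM with the vehicle (log2 fold change 0.70). Cdnf, a neurotrophic factor of the ER, had 1.72 and 0.987 RPKM (log2 fold change 0.75). The third higher gene, Tnfrsf11b, the gene of osteoprotegerin, was at 0.490 and 0.237 RPKM from 62 and 34 reads. Tnfrsf11b was below the level set for named genes, and is named after its values were seen. Its log2 fold change was 0.81 with 0.1 RPKM added. The reads alone gave 1.05, beyond 2-fold, with a counting interval from 0.42 to 1.69. Ccn1 and Ccn2, matricellular proteins and known targets of YAP, were the lower ones. Ccn1 had 5.28 RPKM with AS and 9.66 RPKM with the vehicle, and Ccn2 had 9.11 and 15.4 RPKM, with log2 fold changes of -0.86 and -0.76. The log2 fold changes of Manf and Creld2, secreted ER stress factors under the control of ATF6, were -0.24 and -0.19, and both were picked with their values known. The value of Stc2 (1.34) lay above all 25 genes of this list, whose highest was 0.81, and that of Vegfa (0.59) above 22 of them.

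The genes of transcription factors known to act on these secreted factors in other settings had a median log2 fold change of 0.49, with 15 of 17 genes analysed. Of these 15, 13 were above 0, as were 60.9% of all genes of the table. Above 2-fold were 3 genes and above 1.5-fold 5 genes, with 0 lower at either threshold. Of all genes, 0.662% and 3.56% were higher at these thresholds, and 0.31% and 2.01% were lower. With log2 fold changes in brackets, Ddit3, the gene of CHOP, had 101 RPKM with AS and 31.5 RPKM with the vehicle (1.68). Atf3 had 5.28 and 2.44 RPKM (1.08), and Atf5 had 25.7 and 12.3 RPKM (1.05). Cebpg, a binding partner of ATF4, had 11.9 and 6.56 RPKM (0.85). Atf4 itself had 123 RPKM with AS and 75.5 RPKM with the vehicle (0.70). Hif1a, the oxygen-regulated subunit of HIF-1, was at 48.9 RPKM with AS and 33.9 RPKM with the vehicle (log2 fold change 0.53). Trp53 was at 3.52 and 2.40 RPKM, also a log2 fold change of 0.53. As these factors are also controlled through translation and protein stability, the level of the mRNA is not a measure of their activity. In addition, 4T1 is known as a p53-null line, so the Trp53 mRNA is not read as active p53.

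Genes that share these regulators but whose products stay in or on the cell were set beside the secreted factors. All 13 intracellular ATF4 targets could be analysed, with a median of 1.12. Of these, 8 were higher by more than 2-fold, 11 by more than 1.5-fold and 0 were lower. Of all genes, 0.662% were higher by more than 2-fold and 3.56% by more than 1.5-fold, while 0.31% and 2.01% were lower. The lists were drawn up with earlier results of these data known, so their counts are a description. Slc7a11, the cystine transporter gene, had 6.31 RPKM with AS and 0.478 RPKM with the vehicle (log2 fold change 3.47). Trib3, a pseudokinase gene, had 27.9 and 6.43 RPKM (2.10), and Asns, the asparagine synthetase gene, had 48.3 and 14.3 RPKM (1.75). Slc3a2, the heavy chain of amino acid exchangers, had 99.6 and 36.8 RPKM (1.43). The value of Stc2 (1.34) lay within the range of this list, from 0.05 to 3.47. So did Vegfa (0.59) and the median of all genes (0.07), so a place in this range sets Stc2 apart little.

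The 12 intracellular HIF targets, by contrast, had a median of -0.41, and 10 of the 12 were below 0, as were 39.1% of all genes of the table. Ankrd37, an ankyrin repeat protein gene, was at 4.43 RPKM in the AS library and 9.79 RPKM in the vehicle library (log2 fold change -1.13). Bnip3, a mitophagy receptor gene, had 32.5 and 59.5 RPKM (log2 fold change -0.87). These were the 2 genes of the list that were lower by more than 1.5-fold, and 0 were higher by as much. Of all genes, 2.01% were lower and 3.56% higher at this threshold. The values of Stc2 (1.34) and Vegfa (0.59), which are both known targets of HIF, lay above the highest of the list, Car9 (0.18), named after its value was seen. No gene was put in both this list and that of the ATF4 targets, although the targets of ATF4 and HIF overlap. The range of the list thus depends on how the genes were assigned. Stc1 (-0.44), another known target of HIF, lay inside the range of the list, from -1.13 to 0.18. The median of all genes (0.07) lay inside it too, so this place sets Stc1 apart little.

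Because 4T1 is known as a p53-null line, the p53 targets are given as a description only. Of 12 intracellular p53 targets 10 could be analysed, with a median of 0.12. Trp53inp1, a gene of stress and autophagy, had 1.90 RPKM with AS and 0.666 RPKM with the vehicle (log2 fold change 1.38). It was the only gene of the 10 beyond 1.5-fold, against 3.56% of all genes higher and 2.01% lower. Cdkn1a, the gene of p21 and named after its value was seen, had 0.508 and 0.559 RPKM. The 12 targets of ATF6 and XBP1 among chaperone and ER degradation genes had a median of -0.03. Of these 12, 0 were beyond 1.5-fold, against 3.56% of all genes higher and 2.01% lower. Hsp90b1, the ER chaperone gene with the highest level of this list, had 860 RPKM with AS and 1013 RPKM with the vehicle (log2 fold change -0.24). Whether these regulators act on Stc2, Vegfa or Stc1 in 4T1 cells was not tested.

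**Figure D4:**
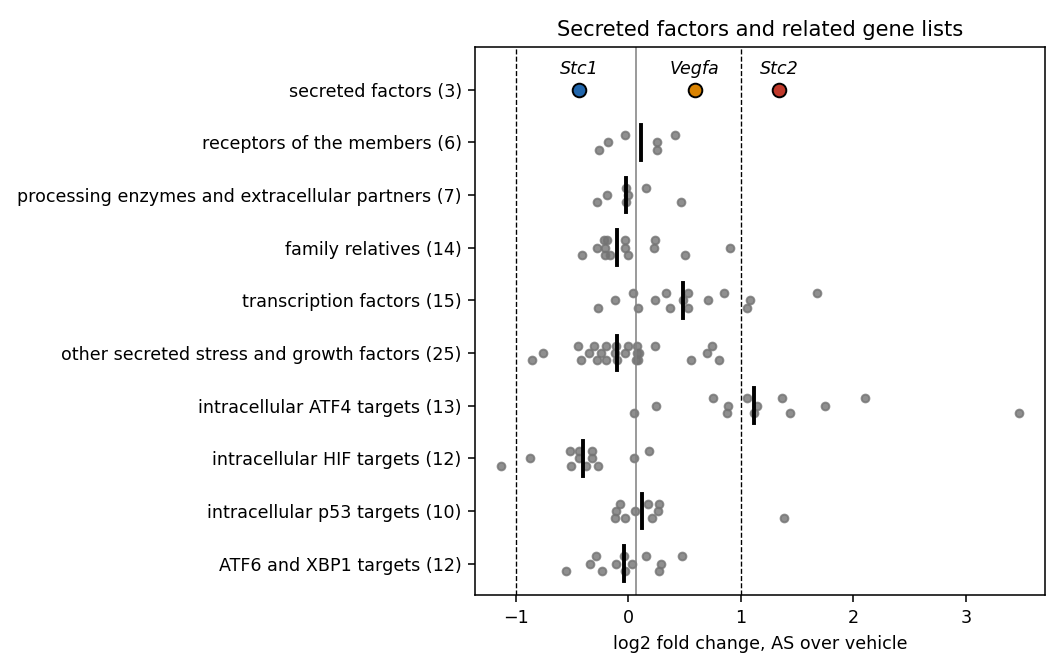
Log2 fold change of AS over vehicle for the 3 secreted factors (top row, in color) and for the genes of 9 related lists (grey points, 1 point per gene, with the number of genes in brackets). Black bars are list medians, the grey line is the median of all genes (0.07) and dashed lines mark 2-fold. The listed ATF4 targets lie to the right of 0 and most listed HIF targets to the left, with Stc2 and Vegfa to the right of all listed HIF targets.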

How the data were processed

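RNA of 4T1 cells given AS or the vehicle was made into stranded mRNA libraries, 1 per condition. Per the labels, the authors used fastp 0.23.4, STAR 2.5.3a and featureCounts, and the genome build named there is GRCh38, a human build. The authors deposited 1 RPKM value per gene and library. No header gives the unit, which was worked out from the deposited values. The annotation and the filter on low genes are not given in the sources used here. The authors' fold changes, mean expression, p-values and FDR were not used.

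Each RPKM was multiplied by the summed exon length of the gene in GENCODE M21 (GRCm38), and the smallest library size that gave whole reads was found. Of 13502 genes with a single entry there, 12738 (94.3%) gave whole reads in both libraries within 0.05 reads, which made up 41993228 reads with AS and 47327994 without it. Coordinates are those of this annotation, and the build behind the deposited values was not settled. Fold changes are log2((RPKM of AS + 0.1)/(RPKM of vehicle + 0.1)), which understates the change of low genes, with a threshold of 1 or, as an alternative, the log2 of 1.5. The tools for differential expression named by the authors need replicates, so no test was run. Intervals are 95% Clopper-Pearson intervals, or exact conditional intervals for a ratio of genes. No molecular identifiers are named, so they cover counting error only.

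The genes and lists were chosen with earlier results of these data known. Named are the 3 genes, in each list up to 4 higher and 4 lower genes beyond 1.5-fold with a mean of at least 0.5 RPKM or else the gene with the highest level, 4 fixed transcription factors (Atf4, Ddit3, Hif1a and Trp53), and per factor the 2 genes of like level nearest in log2 fold change. Promoters are from RefSeq (GRCm38.p6) and were matched by symbol for Stc2 and Vegfa. The steps were tested on simulated data and ran in Python 3.11.15 with SciPy 1.17.1.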

Additional observations from a re-analysis of the deposited data

How the results depend on the processing

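Alternatives were 0 or 1 RPKM added in place of 0.1, scaling by TMM, by the median of ratios or by the upper quartile, a threshold of 1.5-fold and a minimum mean of 1 RPKM, and, chosen after the data were seen, scaling to the reads of protein-coding genes. The log2 fold change of Stc2 was from 0.84 to 1.44 over the settings, that of Stc1 from -0.54 to -0.27 and that of Vegfa from 0.52 to 0.59, and no direction turned. With 1 RPKM added, Stc2 was at 0.84 and the number of secreted factors higher by more than 2-fold was 0 in place of 1, since the added amount is close to the level of the gene. At 1.5-fold the number was 2. Vegfa was at 0.53 with TMM scaling, 0.52 with median-of-ratios scaling and 0.54 with upper-quartile scaling, and at 0.58 with 1 RPKM added or with protein-coding scaling, each below 1.5-fold. Of all genes, 94 were higher and 44 lower by more than 2-fold. With 0 RPKM added 161 were higher. With 1 RPKM added 38 were higher and 16 lower. TMM scaling, for which 0.5 reads were added instead, gave 85 lower genes. None of the 9 list medians changed sign under the 6 alternatives of scaling and added amount. The low read numbers of Stc1 and Stc2 limit their precision, and with 1 library per condition no replicate could be left out.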
